A study of Mus musculus with 10 samples.

Results

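The genes that define serotonin neurons, together with the peptide gene Rln3 (relaxin 3), were followed through hypothalamus arrays of tumour-bearing and control mice. The set was chosen by name and consists of Tph1, Tph2, Slc6a4, Fev, Lmx1b, Gata2, Gata3 and Rln3. Of these 8 genes, 7 had a probe set paired with the gene alone on the array, among 18820 genes measured in this way. Each of the 7 had 1 such probe set. Fev, an ETS family transcription factor of serotonin neurons also known as Pet-1, had none and is not analysed here. To be tested, a gene had to exceed a linear value of 20, or 4.32 in log2 units, on 3 or more of the 8 single-mouse arrays, and 5 of the 7 did. Tph1 and Tph2 did not pass this filter.

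The tumour-bearing group held 5 male CDF1 mice injected in the flank, under the skin, with C26 cells of a colon adenocarcinoma in 0.2 ml of Hanks' balanced salt solution. The control group held 3 male CDF1 mice given 0.2 ml of the salt solution without cells. All were 10 to 11 weeks old, and hypothalamus was taken on day 20. Beside these single-mouse arrays, 1 array held RNA pooled from 5 tumour-bearing mice and 1 array held RNA pooled from 4 controls. Whether the pooled animals include the single mice is not stated, so the pools are given as values beside the tests. All values are log2 RMA levels (background-corrected, normalised probe intensities on a log2 scale), and the number of arrays limits their precision. The C26 tumour is a transplanted line that causes weight loss, and the comparison addresses how the hypothalamus differs in animals that carry it.

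Serotonin is made in the brain by neurons whose cell bodies lie in the raphe nuclei of the midbrain, pons and medulla, and whose axons reach nearly all of the forebrain, the hypothalamus among its targets. The messenger RNAs of Tph2, the rate-limiting enzyme of brain serotonin synthesis, and of Slc6a4, the transporter that takes serotonin back up, are found mainly in those cell bodies. Relaxin 3 is made mostly by neurons of the nucleus incertus in the pontine tegmentum, which also project to the hypothalamus, and in rats its injection into the brain raises food intake. In a piece of bulk tissue, fewer cells of a type and less RNA per cell cannot be told apart.

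The array piece carried hypothalamic transcripts on every array. All 14 markers of the hypothalamus that were looked at passed the filter, and their summed linear level was 3970 to 4960 in tumour-bearing mice and 3610 to 3990 in controls. Array medians were 5.30 to 5.32 over the 8 single-mouse arrays. The tumour-bearing pool had a median of 5.28 and the control pool 5.27. Some arrays stood apart. Control 1 differed from the other controls for Tph2 and Slc6a4. Tumour-bearing mice 3 and 4 carried transcripts of the anterior pituitary, with a summed linear level of its markers of 1910 and 1930, against 208 to 261 in the other tumour-bearing mice and 155 to 305 in controls.

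The 250 bases before the transcription start are shown for the 4 genes with the largest differences between the groups. Sequences are from RefSeq (GRCm38.p6), which held entries for all 8 genes, and run 5′ to 3′ along the strand of the gene. Capitals mark the letters GGAA (the core of sites bound by ETS factors such as Fev) and GATAA (the core of GATA factor sites) on either strand, read as TTCC and TTATC on the opposite strand. No motif overlapped another in these windows.
Tph2 (chr10:115185023-115185272, minus strand): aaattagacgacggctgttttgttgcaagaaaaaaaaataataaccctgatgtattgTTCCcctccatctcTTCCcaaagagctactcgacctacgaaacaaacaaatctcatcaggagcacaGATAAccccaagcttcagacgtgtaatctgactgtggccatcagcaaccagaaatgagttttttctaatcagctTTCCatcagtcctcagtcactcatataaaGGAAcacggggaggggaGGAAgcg
Slc6a4 (chr11:76998347-76998596, plus strand): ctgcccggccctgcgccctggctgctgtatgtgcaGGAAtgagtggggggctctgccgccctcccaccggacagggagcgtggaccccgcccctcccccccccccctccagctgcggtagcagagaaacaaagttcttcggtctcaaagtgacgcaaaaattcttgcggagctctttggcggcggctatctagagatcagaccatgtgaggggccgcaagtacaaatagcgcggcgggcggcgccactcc
Gata3 (chr2:9878601-9878850, minus strand): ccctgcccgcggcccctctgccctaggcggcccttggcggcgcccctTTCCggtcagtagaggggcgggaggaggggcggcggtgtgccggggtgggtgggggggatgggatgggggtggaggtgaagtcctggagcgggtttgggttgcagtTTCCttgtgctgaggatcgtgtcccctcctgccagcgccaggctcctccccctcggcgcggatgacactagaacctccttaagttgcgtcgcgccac
Rln3 (chr8:84044980-84045229, minus strand): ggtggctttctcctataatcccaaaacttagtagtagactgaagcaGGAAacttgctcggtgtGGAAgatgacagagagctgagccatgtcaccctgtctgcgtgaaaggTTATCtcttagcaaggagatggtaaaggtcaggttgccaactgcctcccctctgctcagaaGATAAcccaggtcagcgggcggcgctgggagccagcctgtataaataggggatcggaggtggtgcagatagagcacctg
GGAA or TTCC occurred 5 times before Tph2, 1 time before Slc6a4, 2 times before Gata3 and 2 times before Rln3. Of 32851 promoter windows of this length, 93.4% held at least 1 such match, so their presence here is the ordinary case. GATAA or TTATC occurred 1 time before Tph2 and 2 times before Rln3, and was not among the letters of the Slc6a4 and Gata3 windows. It was present in 22.6% of all windows. A match is a description of the letters and not a binding site.

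Transcripts of the serotonin-making enzyme and of the transporter were high in controls 2 and 3 and low on the other single-mouse arrays. Tph2 was 3.20, 3.67, 3.30, 3.00 and 3.61 in tumour-bearing mice 1 to 5, against 3.19, 5.99 and 5.13 in controls 1 to 3. All tumour-bearing mice and control 1 lay below the filter level, so that 0 of 5 tumour-bearing mice and 2 of 3 controls were above it. The groups overlapped through control 1. Group means were 3.35 ± 0.28 (SD, n = 5) in tumour-bearing mice and 4.77 ± 1.44 (SD, n = 3) in controls, a difference of -1.41 (95% interval -2.57 to -0.26 in a fit without the filter), or 0.375 times the control level on the linear scale. With low values raised to the filter level it was -0.83. The interval rests on 1 variance for both groups, although their SDs differ widely, so it may be too narrow. Since Tph2 did not pass the filter it entered no test in the fit used here. In a limma fit of all genes without a filter its adjusted p was 0.506, and 0.0159% of the 18820 genes were called in that fit.

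Slc6a4 had the same split. It was 4.19, 4.34, 4.33, 3.96 and 3.56 in tumour-bearing mice 1 to 5, against 3.78, 6.45 and 5.93 in controls 1 to 3. Control 1 lay within the range of the tumour-bearing mice, and the other controls lay well above every other array. The mean was 4.08 ± 0.32 (SD, n = 5) in tumour-bearing mice and 5.39 ± 1.41 (SD, n = 3) in controls, a difference of -1.31 ± 0.51 (SE, 95% interval -2.46 to -0.17), or 0.403 times the control level on the linear scale. With low values raised to the filter level it was -1.24. Here too the interval rests on 1 variance for groups of unlike SD and may be too narrow. The difference did not pass the test (limma adjusted p = 0.413). The unadjusted limma p was 0.0288, and 10.3% of the 12978 tested genes had an unadjusted p under 0.05, 6.51% being lower. By adjusted p under 0.05, 0% of genes were called lower and 0.0771% higher.

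The difference in these 2 genes depended on which control was included. Without control 1, Slc6a4 differed by -2.12 and passed the test (limma adjusted p = 0.0430, with 0.0231% of genes called lower in that fit and 0.0231% higher). Without control 2 it differed by -0.784 and without control 3 by -1.04, with limma adjusted p of 0.705 and 0.642. In the fit without control 2, 0% of genes were called lower and 0.0154% higher, and in that without control 3 none was called in either direction. Slc6a4 was not tested when 5 arrays above the filter level were required, since it exceeds the level on 4. Over the 21 other alternatives its limma adjusted p ran from 0.0430 to 0.837. For Tph2 the difference was -2.21 without control 1, -0.802 without control 2 and -1.24 without control 3. Leaving out any 1 tumour-bearing mouse kept Slc6a4 between -1.38 and -1.18, as the plot of differences with 1 mouse left out shows.

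**Figure D1:**
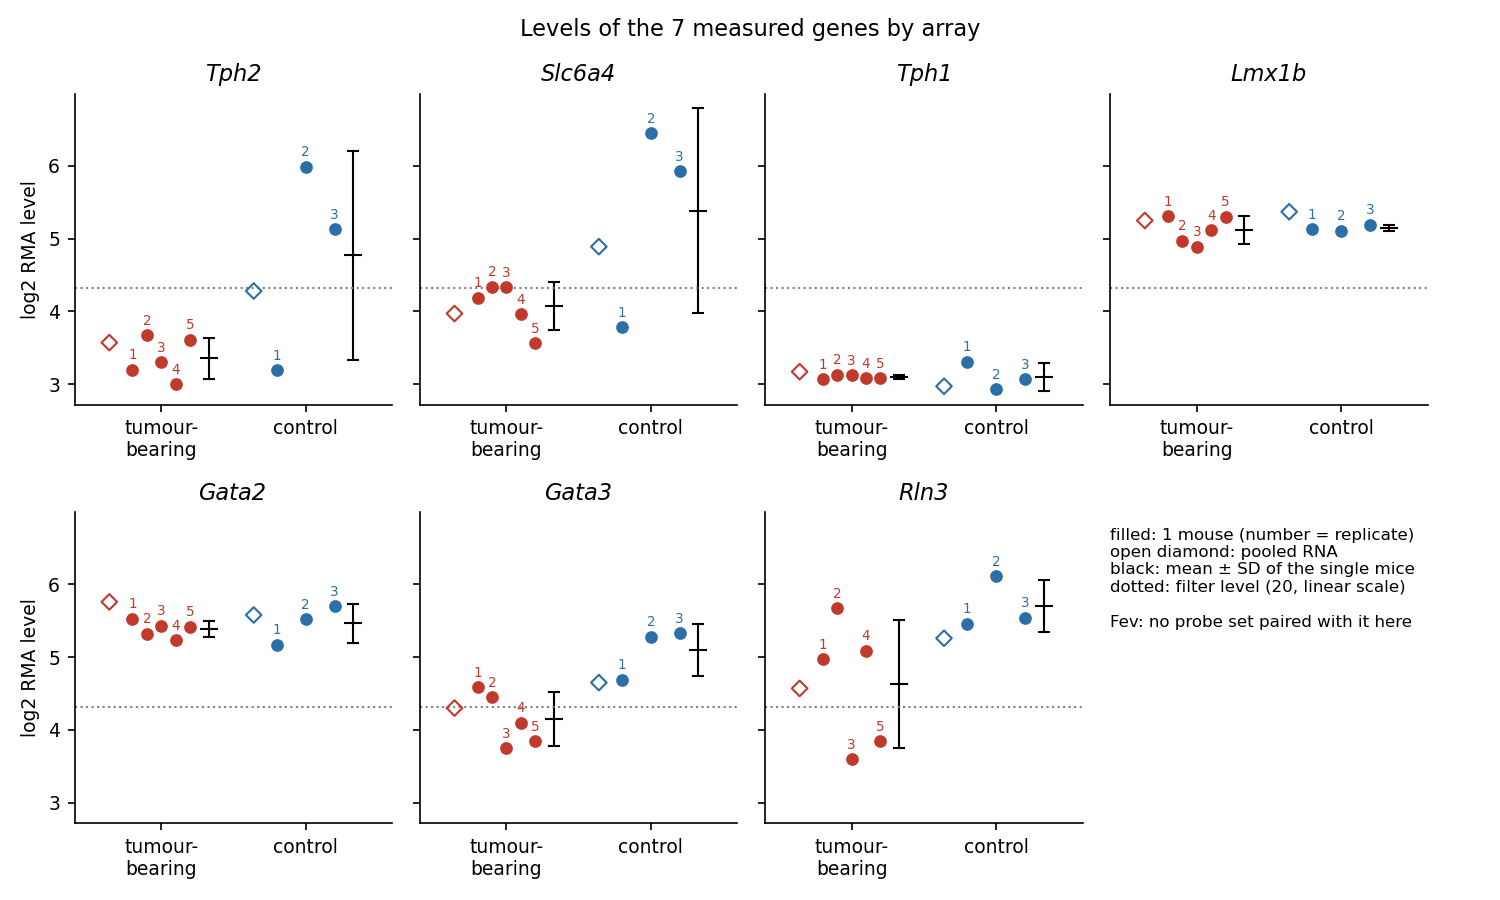
Levels (log2 RMA, vertical axis) of the 7 measured genes in tumour-bearing mice (red, left) and controls (blue, right). Filled points are single mice with their replicate number, open diamonds are pooled RNA, black bars are the mean ± SD and the dotted line is the filter level of 4.32. For Tph2 and Slc6a4, controls 2 and 3 stand above all other arrays and control 1 lies with the tumour-bearing mice.

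The variation among controls was unusual in size. The SD of Slc6a4 over the 3 controls, 1.41, was the largest among the 12978 tested genes, for which the median SD was 0.0878. The SD of Tph2, 1.44, was larger still. Control 1 was below the filter level for both genes, so the exact SDs and their order are uncertain. Among tumour-bearing mice the spread was smaller, at 0.32 for Slc6a4 and 0.28 for Tph2, against a median of 0.0917. Control 1 lay more than 1 log2 unit below both other controls for 4 of 12978 tested genes. These were Slc6a4, Acta2 (smooth muscle actin), Cytl1 (a secreted cytokine-like protein) and Scn4b (a sodium channel beta subunit), named after their values were seen. No tested gene put control 2 so far below both others, and 1 gene, Gm4884, did so for control 3.

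The pooled arrays differed in the same direction, but for Tph2 both pools were below the filter level of 4.32, where values cannot be ordered. Tph2 was 3.57 in the tumour-bearing pool and 4.28 in the control pool, a difference of -0.71. Slc6a4 was 3.97 in the tumour-bearing pool and 4.89 in the control pool, a difference of -0.92. The control pool was thus below controls 2 and 3 for both genes. It was above control 1 for Slc6a4, while for Tph2 both it and control 1 were below the filter level. With 1 pool per group there is no test of these differences.

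Tph1, the tryptophan hydroxylase of the gut and the pineal gland, was below the filter level on every array. Its values ran from 3.07 to 3.13 in tumour-bearing mice, against 3.31, 2.93 and 3.07 in controls 1 to 3. The difference was -0.01 (95% interval -0.24 to 0.23 in the fit without a filter, limma adjusted p = 0.995), and the pools were at 3.17 in tumour-bearing and 2.97 in control mice. The array therefore gave no Tph1 signal that could be compared. Of 7 pineal and melatonin genes, 6 had a probe set and 4 of these were also below the level on every single-mouse array. The pineal list had 2 tested members, Rorb and Rom1, which differed by 0.08 and 0.01.

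The transcription factors of the serotonin lineage did not share 1 pattern. Gata3, a zinc finger factor used by developing serotonin neurons and by some GABA neurons of the midbrain, separated the groups. It was 4.59, 4.45, 3.75, 4.10 and 3.84 in tumour-bearing mice 1 to 5, against 4.69, 5.28 and 5.33 in controls 1 to 3. Every tumour-bearing mouse lay below every control, and control 1 was again the lowest of the controls. All tumour-bearing mice lay below all controls for 5.19% of the 12978 tested genes and above all controls for 3.11%. Of the 5 tested genes of the set, Gata3 was the 1 without overlap. The mean was 4.14 ± 0.37 (SD, n = 5) in tumour-bearing mice and 5.10 ± 0.36 (SD, n = 3) in controls, a difference of -0.95 ± 0.24 (SE, 95% interval -1.49 to -0.42). On the linear scale this is a level of 0.516 times that of controls. It did not pass the test (limma adjusted p = 0.257, and 0.0668 to 0.781 over the alternatives). Since 3 tumour-bearing mice were below the filter level, the difference with low values raised to that level is also given, and it was -0.70. Leaving out 1 mouse kept it between -1.16 and -0.839. The pools were at 4.30 in tumour-bearing and 4.65 in control mice, a difference of -0.34.

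Gata2, the close relative of Gata3 that is also expressed in endothelial and blood-forming cells, was nearly level. It was 5.53, 5.32, 5.43, 5.23 and 5.42 in tumour-bearing mice 1 to 5, against 5.17, 5.52 and 5.70 in controls 1 to 3. Control 1 was the lowest array and control 3 the highest, so the controls enclosed all tumour-bearing mice. The difference was -0.08 ± 0.13 (SE, 95% interval -0.37 to 0.21, limma adjusted p = 0.885), and it turned to 0.0405 without control 3. The pools were at 5.76 in tumour-bearing and 5.58 in control mice.

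Lmx1b, a LIM homeodomain factor needed by serotonin neurons and also present in midbrain dopamine neurons, had the smallest difference of the 5 tested genes. It was 5.31, 4.97, 4.89, 5.12 and 5.30 in tumour-bearing mice 1 to 5, against 5.13, 5.11 and 5.19 in controls 1 to 3. The controls lay close together, and the tumour-bearing mice spread to both sides of them. The difference was -0.03 ± 0.12 (SE, 95% interval -0.30 to 0.25, limma adjusted p = 0.968), and it was above 0 without tumour-bearing mouse 2 (0.0114), without mouse 3 (0.0316) or without both 3 and 4 (0.0509). The pools were at 5.25 in tumour-bearing and 5.37 in control mice. Unlike Tph2 and Slc6a4, Lmx1b did not set control 1 apart, since control 1 was at 5.13 and control 2 at 5.11.

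Relaxin 3 transcripts varied most among the tumour-bearing mice. Rln3 was 4.97, 5.67, 3.60, 5.09 and 3.84 in tumour-bearing mice 1 to 5, against 5.46, 6.11 and 5.54 in controls 1 to 3. Mice 3 and 5 were below the filter level, mouse 2 was above controls 1 and 3, and the groups overlapped through mouse 2 alone. The mean was 4.63 ± 0.88 (SD, n = 5) in tumour-bearing mice and 5.70 ± 0.36 (SD, n = 3) in controls, a difference of -1.07 ± 0.44 (SE, 95% interval -2.07 to -0.08), and -0.83 with low values raised to the filter level. This is 0.476 times the control level on the linear scale. It did not pass the test (limma adjusted p = 0.439, and 0.266 to 0.767 over the alternatives), with a range of -1.33 to -0.812 when 1 mouse was left out. The SD of Rln3 over tumour-bearing mice was exceeded by 4 of the tested genes, which were Gh, Slc6a3, Alb and Mup6 (the last pair named after their values were seen). With mice 3 and 5 below the filter level, the exact SD of Rln3 and its place are uncertain. Control 1 was not set apart for Rln3, since it was at 5.46 and control 3 at 5.54. The pools were at 4.57 in tumour-bearing and 5.26 in control mice, a difference of -0.69.

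**Figure D2:**
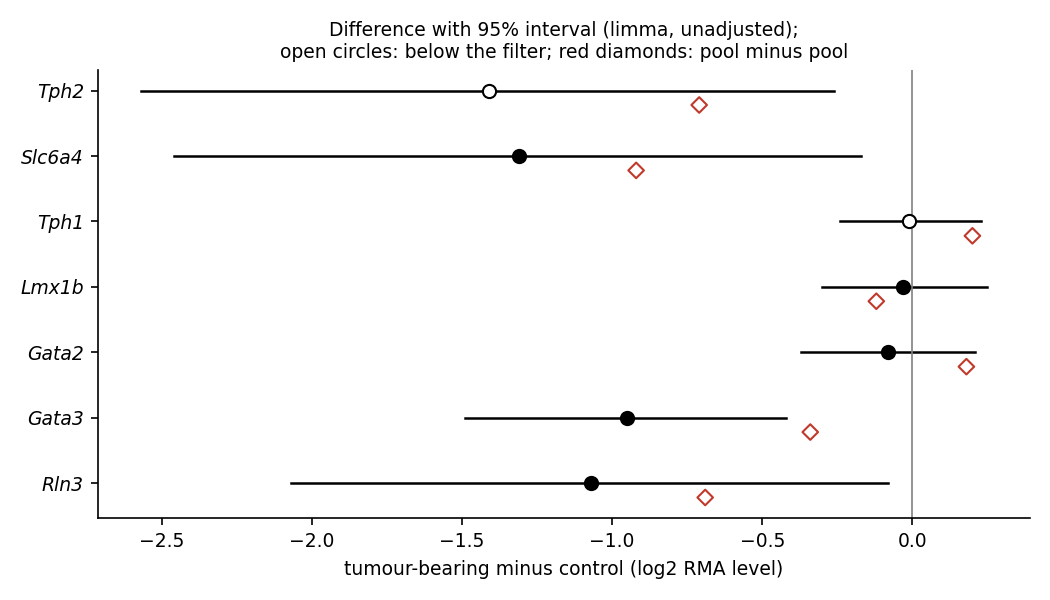
Difference between tumour-bearing and control mice (log2 RMA level, horizontal axis) for the 7 measured genes, with unadjusted 95% intervals from limma. Open circles are the 2 genes below the filter, and red diamonds are the tumour-bearing pool minus the control pool. Tph2, Slc6a4, Gata3 and Rln3 lie between -1.41 and -0.95, while Tph1, Lmx1b and Gata2 lie between -0.08 and -0.01.

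Ranked by their difference from the most negative upward, Slc6a4 stood at place 3, Rln3 at 5 and Gata3 at 9 among 12978 tested genes, whose median difference was -0.01. The 2 genes before Slc6a4 were Slc6a3, the dopamine transporter, and Chrna5, a nicotinic receptor subunit. Between Slc6a4 and Rln3 lay Chrna6, another nicotinic receptor subunit. Gata2 and Lmx1b stood at places 3201 and 5619. Since low values cannot be ordered, the places are also given with values under the filter level raised to it. Slc6a4 then stood at place 2, behind Slc6a3, Rln3 at 13 with Chrna5 one place before it, and Gata3 at 20. These places describe the size of the differences and carry no test, and none of the 5 tested genes was called by limma at an adjusted p under 0.05.

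The members fell into patterns that were alike in part. Likeness was measured as the root mean square difference between 2 genes over the 8 single-mouse arrays, after each gene was centred on its own mean. It was 0.33 log2 units between Tph2 and Slc6a4, the smallest among the 4 genes with large differences. It was 0.46 between Gata3 and Rln3. Rln3 stood 0.84 from Slc6a4 and 0.90 from Tph2. Control 1 was near the other controls for Rln3 but not for those 2 genes. Likewise, tumour-bearing mouse 3 was the lowest of its group for Rln3 but not for them. Other arrays added to these distances as well. Gata3 lay between these pairs, at 0.62 from Slc6a4 and 0.69 from Tph2. It was 0.18 to 0.23 among Tph1, Lmx1b and Gata2. Their SDs were 0.03, 0.19 and 0.11 over tumour-bearing mice, against a median of 0.0917 over all tested genes, and 0.19, 0.04 and 0.27 over controls, against a median of 0.0878.

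Among the other 12973 tested genes, the 6 most like Slc6a4 were Kcng4 (a modulatory potassium channel subunit), Chrna5, Nefm (a neurofilament subunit), Syt2 (a calcium sensor of fast synapses), Klk6 (a secreted protease abundant in oligodendrocytes) and Sptssb (a small subunit of serine palmitoyltransferase). Their root mean square differences from Slc6a4 were 0.54 to 0.68, so none came as close as Tph2. The median over all genes was 0.98, but most genes varied little, so that median mainly reflects the spread of Slc6a4 itself. Kcng4 was 4.37, 4.95, 4.19, 4.12 and 4.07 in tumour-bearing mice 1 to 5, against 4.80, 5.66 and 5.60 in controls 1 to 3. Nefm was 7.46, 7.34, 6.90, 6.98 and 7.07 in tumour-bearing mice 1 to 5, against 6.95, 7.91 and 7.88 in controls 1 to 3. In both genes controls 2 and 3 were the highest arrays. Control 1 was low for Nefm and within the range of the tumour-bearing mice for Kcng4.

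The 6 genes most like Rln3 were Chrna6 and Chrnb3, nicotinic receptor subunits of catecholamine neurons, then Klk6, Chrna5, Th (tyrosine hydroxylase) and Opalin (a myelin protein). Their root mean square differences were 0.37 to 0.44. The median over all genes, 0.83, again mainly reflects the spread of the gene compared, here Rln3. Chrnb3 was 5.58, 6.24, 4.27, 5.46 and 5.40 in tumour-bearing mice 1 to 5, against 6.15, 6.33 and 6.32 in controls 1 to 3. As for Rln3, mouse 2 was at the level of the controls. Mouse 3 was the lowest for Chrnb3 and, with mouse 5, below the filter level for Rln3. In the pools the direction was the opposite, since the tumour-bearing pool minus the control pool was 0.20 for Chrna6 and 0.24 for Chrnb3, while it was -0.69 for Rln3.

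**Figure D3:**
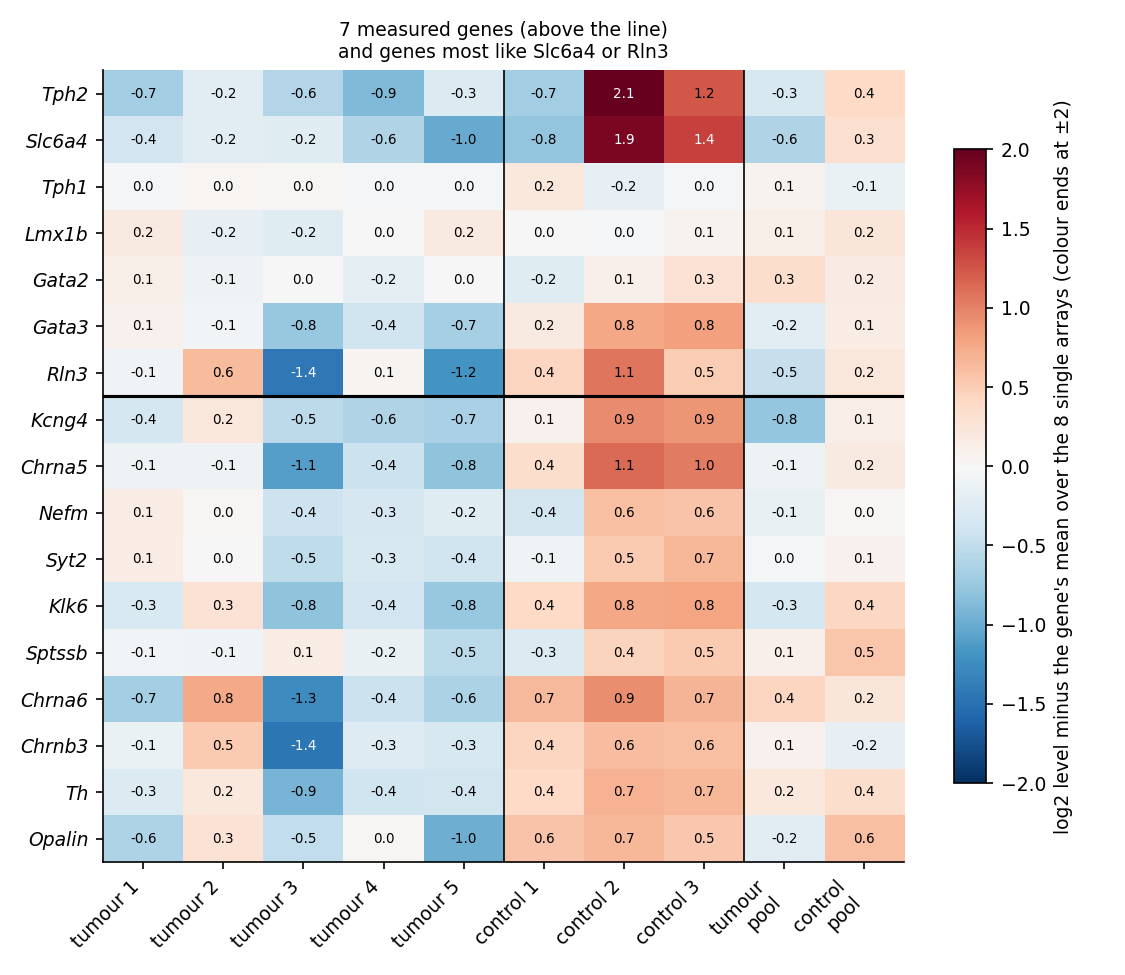
Levels of the 7 measured genes (above the line) and of the genes most like Slc6a4 or Rln3 (below it) on each array, as log2 RMA level minus the mean of the gene over the 8 single-mouse arrays. Red is higher and blue lower. Tph2 and Slc6a4 are highest in controls 2 and 3, and Rln3, Chrna6 and Chrnb3 are lowest in tumour-bearing mouse 3.

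Other genes of serotonin metabolism were lower or nearly level, and 0 of 9 tested members of a list of 11 were called. Of these, 7 were lower and 2 higher, and the median difference was -0.12, against -0.01 over all tested genes. Slc18a2, the vesicular monoamine transporter, differed by -0.72 ± 0.16 (SE, limma adjusted p = 0.214). Ddc, which makes serotonin from its hydroxylated precursor, differed by -0.44 ± 0.13 (SE, adjusted p = 0.319), and Qdpr, which recycles the cofactor of the hydroxylases, by -0.40 ± 0.11 (SE, adjusted p = 0.277). Without tumour-bearing mouse 2, Slc18a2 differed by -0.857 and Qdpr by -0.487, and both passed (limma adjusted p = 0.00750 and 0.0496). In that fit 0.223% of genes were called lower and 0.185% higher. Slc18a2 also passed when only probe sets paired with 1 gene entered the fit and the adjustment (limma adjusted p = 0.0452). In that setting 0.223% of genes were called lower and 0.301% higher. None of the 5 tested genes of the set was called in either. Dopamine neurons use all 3 of these genes as well. Slc18a2 was 7.79, 8.50, 7.75, 7.91 and 7.86 in tumour-bearing mice 1 to 5, against 8.53, 8.80 and 8.72 in controls 1 to 3. Here control 1 was above every tumour-bearing mouse, though only just above mouse 2, whereas for Slc6a4 it was within their range.

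Regional identity genes and receptors of raphe neurons had 4 of 8 tested members lower and 4 higher (12 listed), with a median of -0.07 and none called. The largest differences were in En2 and En1, homeodomain factors of the midbrain and anterior hindbrain, at -0.64 and -0.48, and in Foxa2, a floor plate factor, at -0.46. En2 was below the filter level in most tumour-bearing mice. With low values raised to that level the differences were -0.429 for En2, -0.445 for En1 and -0.368 for Foxa2. En1 was 4.79, 5.30, 4.17, 4.61 and 4.70 in tumour-bearing mice 1 to 5, against 4.88, 5.29 and 5.40 in controls 1 to 3. Mouse 3 was the lowest. Mouse 2 was within the range of the controls, as for Rln3.

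The relaxin family had small differences beside that of Rln3. Of 5 tested genes of the relaxin family (7 listed), 3 were higher and 2 lower, none was called, and the median was 0.02. Rxfp3, the receptor of relaxin 3, was 5.19, 4.81, 4.90, 5.06 and 4.97 in tumour-bearing mice 1 to 5, against 4.90, 5.00 and 4.77 in controls 1 to 3. The groups overlapped, and the difference was 0.09 ± 0.12 (SE, limma adjusted p = 0.835). Rxfp1, the relaxin receptor, differed by -0.21 and Insl5, an insulin-like peptide of the family, by 0.13.

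Partners of GATA factors and genes of GABA neurons had 7 of 9 tested members lower and 2 higher (10 listed), with a median of -0.04 and none called. Tal1, a partner of Gata2 and Gata3, differed by -0.22 ± 0.12 (SE, limma adjusted p = 0.545), Sox14 by -0.20 and Zfpm1, a GATA cofactor, by -0.14 (0.00427 without control 3).

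Markers of neighbouring tissue were read beside these genes. All 9 tested markers of midbrain dopamine neurons (10 listed) were lower, with a median of -0.78 and none called. Their summed linear level was 1170 to 2880 in tumour-bearing mice and 3050 to 3510 in controls. It was 2580 in the tumour-bearing pool and 2810 in the control pool. A few bright genes, Slc6a3 and Th among them, made up most of the sum in controls. For the single markers Chrna6, Foxa1, Drd2 and Ret the groups overlapped. Over all tested genes, all tumour-bearing mice lay below all controls for 5.19%. Tumour-bearing mouse 3 had the lowest sum, 1170, and mouse 2 the highest of its group, 2880. Mouse 2 also had the highest Rln3 of its group, while for Rln3 mice 3 and 5 were both below the filter level. Mice 1, 4 and 5 had nearly equal sums (1800, 1800 and 1830) but Rln3 levels of 4.97, 5.09 and 3.84. Slc6a3 differed by -1.58, Chrna6 by -1.20 (-1.50 without tumour-bearing mouse 2, limma adjusted p = 0.0282) and Slc10a4, a vesicular transporter-like protein, by -1.02. Controls 1 to 3 had sums of 3050, 3510 and 3410, so control 1 lay nearer to the 2880 of tumour-bearing mouse 2 than to the other controls. The part of this tissue in the levels of Rln3, Gata3, Tph2 and Slc6a4 was not tested.

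Of 13 genes marking the hindbrain, 10 were below the filter level on every single-mouse array, Hoxa2 and the glycine transporter Slc6a5 among them. The summed linear level of the list was 489 to 518 in tumour-bearing mice, against 535, 645 and 652 in controls 1 to 3, with 495 in the tumour-bearing pool and 569 in the control pool. All 3 tested members were lower, with a median of -0.16: Glra1, a glycine receptor subunit, by -0.34, Hoxa4 by -0.16 and Hoxb3 by -0.11 (0.0189 without control 3). None was called. Glra1 was 8.32, 8.47, 8.51, 8.45 and 8.47 in tumour-bearing mice 1 to 5, against 8.59, 8.89 and 8.85 in controls 1 to 3, with control 1 the lowest of the controls. Glra1 alone made up most of the summed level on every array, so the separation of the sums is mainly that of this gene. For Hoxa4 and Hoxb3 the groups overlapped. Of the noradrenergic markers, 3 of 5 had a probe set. Dbh and Slc6a2, which define noradrenaline neurons, were below the level on every single-mouse array, and Gal, also a hypothalamic peptide gene, differed by 0.16. Among 6 tested pontine and interpeduncular markers (8 listed), 5 were lower and 1 higher, with a median of -0.14 and none called. Chrna5 differed by -1.35 ± 0.28 (SE, limma adjusted p = 0.191, and 0.0319 with only probe sets of 1 gene). It was below the filter level in all 5 tumour-bearing mice and passed through the controls alone, and with low values raised to the level it differed by -0.839. Slc5a7, the choline transporter, differed by -0.32 and Chrna3 by -0.17. With 1 mouse left out, Slc5a7 ran from -0.623 without control 1 to -0.118 without control 2, and the list median from -0.279 without control 1 to -0.0555 without control 3. Slc5a7 was at 4.67 in control 1, against 5.68 and 5.48 in controls 2 and 3. The part of these tissues in the levels of the serotonin genes was not tested.

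**Figure D4:**
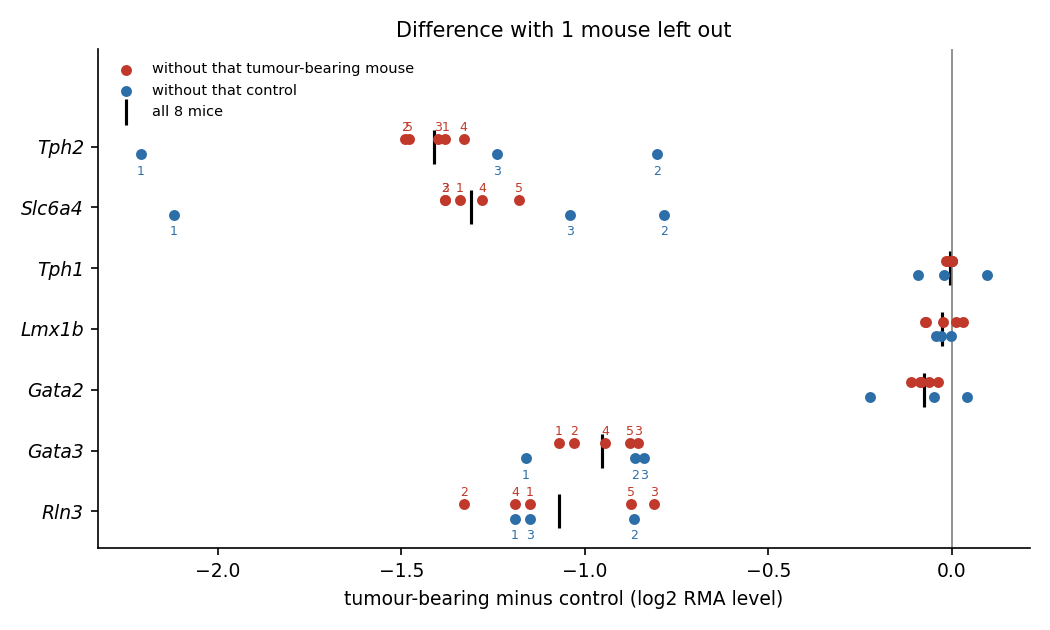
Difference between tumour-bearing and control mice (log2 RMA level, horizontal axis) for each measured gene with 1 mouse left out. Red points leave out a tumour-bearing mouse and blue points a control, numbered by replicate for the 4 genes with large differences, and black bars use all 8 mice. Slc6a4 moves from -2.12 without control 1 to -0.784 without control 2, whereas Gata3 stays between -1.16 and -0.839.

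The markers of the hypothalamus itself ran the other way. Of 14 tested, 13 were higher and 1 lower, none was called, and the median was 0.25. Oxt, oxytocin, differed by 0.66, Avp, vasopressin, by 0.50 ± 0.07 (SE, limma adjusted p = 0.0597) and Trh, thyrotropin-releasing hormone, by 0.49 (adjusted p = 0.135). Both passed without tumour-bearing mouse 2, by 0.543 and 0.547 (limma adjusted p = 0.0142 and 0.0282), and with only probe sets of 1 gene (0.00564 and 0.0245). The summed linear level was lowest in control 1, at 3610, and highest in tumour-bearing mice 3 and 4, at 4960 in each. A few bright peptide genes, Oxt and Avp among them, made up most of this sum. Oxt was 8.68 in control 1, against 9.47 and 9.33 in controls 2 and 3. Whether the direction of these markers relates to the amount of midbrain tissue in the piece was not tested.

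**Figure D5:**
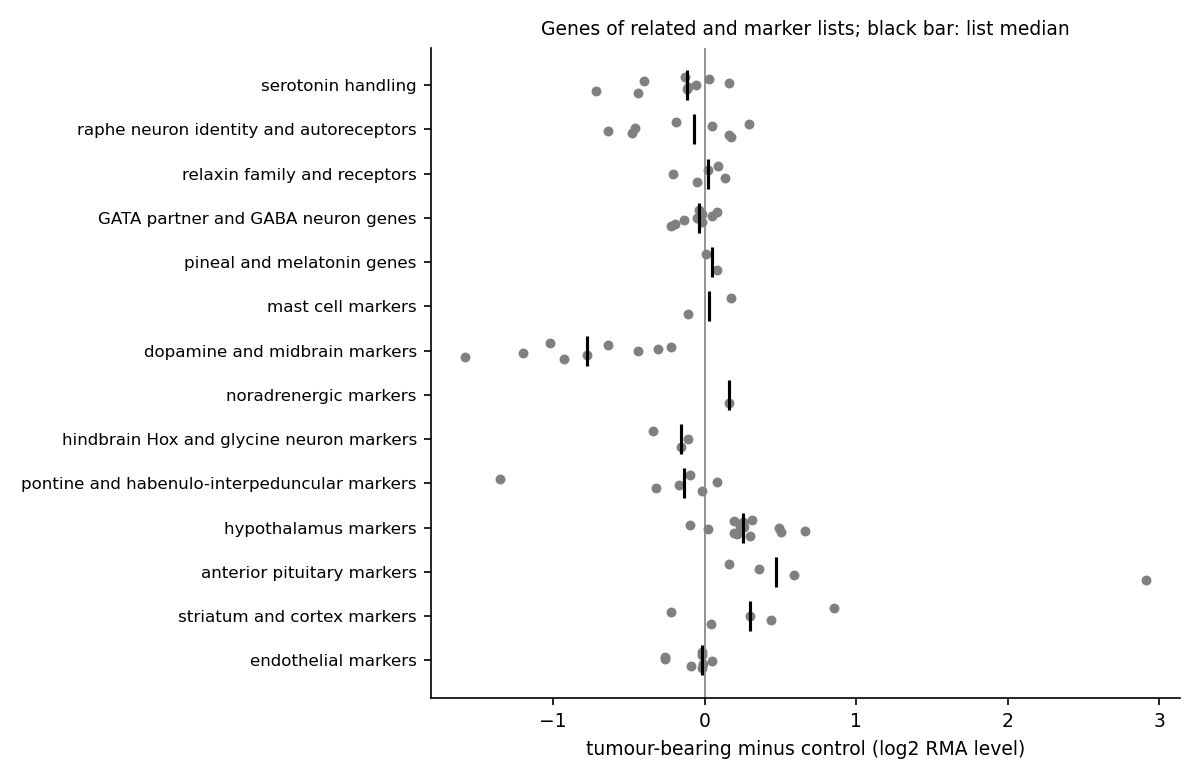
Difference between tumour-bearing and control mice (log2 RMA level, horizontal axis) for each tested gene of 14 lists, with the list median as a black bar. The dopamine and midbrain markers have the lowest median, -0.78, and the hypothalamus markers are mostly above 0, with a median of 0.25.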

How the data were processed

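Hypothalamus RNA was hybridised to 10 Affymetrix arrays, 8 of single mice and 2 of pooled RNA. The deposited log2 values were made by the authors with RMA, per the submitters' processing notes. Its version and settings are not stated there, and the log2 scale was judged from the values' range. RMA gives all arrays a common distribution and compresses folds. Array batches were not given in the sources used here.

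The table held 35556 probe sets, of which the platform annotation paired 21218 with 1 gene and 1881 with several, leaving 12457 unnamed here. The brightest probe set stood for each gene. Probe sets above 20 on at least 3 of the 8 single-mouse arrays were tested (22837, covering 12978 genes) with limma 3.58.1 in R 4.3.3 (lmFit, eBayes with trend), adjusted by Benjamini-Hochberg over all of them at 0.05. The test was checked on simulated data. Intervals are 95% and unadjusted, and use 1 variance for both groups. The p-values judge each group difference against the spread between mice. For this, limma draws the variance of each probe set toward a trend over all of them.

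The genes and the 14 lists were chosen with earlier results of these data known. Lists are described by counts and medians. The text names all 8 genes, from each list its called genes or up to 3 with the largest differences, and the 6 genes most like Slc6a4 and Rln3. Array values of further genes named by this rule were picked for illustration. Alternatives were 13 processing choices, leaving out each mouse, and 1 chosen after seeing the data, leaving out tumour-bearing mice 3 and 4. The plots used matplotlib 3.10.9 (Python 3.11.15).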

Additional observations from a re-analysis of the deposited data

Results flagged for a closer look

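Among 53 genes named here, 3 had a tumour-bearing mouse far from the other 4, by a gap that took up more than 0.71 of the range of the group. Chance gives such a gap in about 1 in 20 groups. None of the 7 measured serotonin and relaxin genes was among them. Slc18a2 was 8.50 in tumour-bearing mouse 2, against 7.75 to 7.91 in the other 4. Slc5a7 was 5.26 in tumour-bearing mouse 1, against 4.86 to 4.91 in the other 4. Ppp1r1b, a phosphatase inhibitor of striatal neurons, was 7.47 in tumour-bearing mouse 1, against 5.62 to 5.86 in the other 4.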

How the results depend on the processing

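For the 7 measured genes, 125 of 130 values under the alternatives were counted as unchanged. For the 5 tested genes this means the same direction and side of the threshold, while Tph1 and Tph2 were judged by size alone. Several alternatives, such as other filters or no intensity trend, cannot alter the difference itself and move only its adjusted p. The exceptions were Slc6a4, which passed without control 1 (-2.12 to -0.784 with 1 mouse left out), Lmx1b (-0.0736 to 0.0316 with 1 mouse left out, and 0.0509 without both tumour-bearing mice 3 and 4) and Gata2 (-0.222 to 0.0405 with 1 mouse left out). Tph1 ran from -0.0911 to 0.097, changing sign, and Tph2 from -2.21 to -0.802. Counts of called genes were 10 higher and 0 lower, and moved more: 3 higher without a filter, 3 higher without an intensity trend, 0 higher without both tumour-bearing mice 3 and 4, 39 higher and 29 lower with probe sets of several or unnamed genes left out, 2 lower with array weights, 1 lower with the pools added as samples, and 0 to 24 higher and 0 to 29 lower with 1 mouse left out. When those are left out, fewer probe sets enter the adjustment and the variance trend is also fitted anew. The cause of these changes was not tested. Of the other 46 named genes, 9 that did not pass with all mice passed under an alternative, all in the same direction. With only probe sets of 1 gene these were Slc18a2, Chrna5, Avp, Trh, Tbr1, Klk6 and Th, at limma adjusted p of 0.00564 to 0.0452. Without tumour-bearing mouse 2 they were Slc18a2, Qdpr, Chrna6, Avp, Trh, Klk6 and Th, at 0.00750 to 0.0496. Directions turned for 4: Rom1 was -0.0231 with the pools as samples, -0.018 without mice 3 and 4 and -0.0341 to 0.0754 with 1 mouse left out, Zfpm1 was -0.292 to 0.00427, Hoxb3 -0.275 to 0.0189 and Cdh5 -0.193 to 0.0242. List medians changed sign with 1 mouse left out for the relaxin family (-0.00953 to 0.0859), mast cells (-0.015 to 0.0797) and endothelium (-0.156 to 0.0449). With the replicate number as a block, 0 genes were called higher and Slc6a4 differed by -1.10 (limma adjusted p = 0.837, within 0.0430 to 0.837 over its alternatives). The numbers do not pair the mice: the correlation of deviations between same-numbered mice was -0.00199, 0.00839 and 0.00891, and no control correlated best with the tumour-bearing mouse of its own number. The small number of arrays and the low signal of Tph2, Slc6a4 and Gata3 limit what can be detected.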

Other observations

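Markers of other tissues and cells were read on the same arrays. Of 8 anterior pituitary markers, 4 were tested and all were higher, with a median of 0.47 and none called. Gh, growth hormone, was 10.45 and 10.48 in tumour-bearing mice 3 and 4 and 9.82 in the tumour-bearing pool, against 4.37 in the control pool. Its difference was 2.91 ± 1.42 (SE, limma adjusted p = 0.519). Cga differed by 0.59 and Lhb by 0.36. Without mice 3 and 4, Tph2 differed by -1.28, Slc6a4 by -1.36, Gata3 by -0.807 and Rln3 by -0.878. Of 5 tested striatum and cortex markers (8 listed), 4 were higher and 1 lower, none was called, and the median was 0.30. Tbr1, a factor of forebrain excitatory neurons, differed by 0.85. All 3 controls were below the filter level for Tbr1, and with them raised to it the difference was 0.611. Ppp1r1b differed by 0.44 and Rgs9 by 0.30. Without tumour-bearing mouse 1, Ppp1r1b differed by 0.0882, which was then also the list median.

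Mast cells, which express Tph1 and Gata2, had 6 of 8 markers below the filter level on every single-mouse array. The tested markers were Hdc and Kit, which differed by 0.17 and -0.11 and are also expressed by neurons. Of 8 endothelial markers, 7 were lower and 1 higher, with a median of -0.02 and none called (-0.156 without control 1). Tek and Kdr each differed by -0.26 and Cdh5 by -0.09 (0.0242 without control 3). Their summed linear level was 983 to 1140 in tumour-bearing mice and 924 to 1190 in controls, lowest in control 1, which also had the lowest Gata2. Control 1 was more than 1 log2 unit above both other controls for 2 tested genes, Cga and Crym, and control 3 for 3, Alb, Irx2 and Pappa2, all named after their values were seen.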
